A study of Homo sapiens with 2 samples.

Results

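Footprint counts of the enzymes of glycolysis were examined in ribosome profiling of HEK293, an established cell line from human embryonic kidney. The 10 genes were chosen by name, with earlier results of these data already known. They are GPI, ALDOA and TPI1 of the preparatory steps and GAPDH, PGK1, PGAM1, ENO1 and PKM of the payoff steps. LDHA and LDHB, the subunits of lactate dehydrogenase, complete the set. All 10 were found among the 57820 Ensembl IDs of the count table. Both libraries belong to a single group, HEK293 cells given DMSO as vehicle for 12 h at basal conditions, with replicate 1 in batch 1 and replicate 2 in batch 2. Minocycline-treated cells and RNA-seq are not analysed here, so the comparisons are among the enzymes and between the 2 libraries, and ribosomes per mRNA could not be measured. Apart from their batch numbers the labels do not say that the libraries came from separate cultures, so the spread between them may be technical. Markers of the cell line were not checked, because the sources used here name no IDs other than these 10.

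Glycolysis splits glucose into pyruvate in the cytosol. Its preparatory steps rearrange and cleave a sugar phosphate at the cost of ATP, and its payoff steps oxidise the resulting trioses and regain ATP. Lactate dehydrogenase then turns pyruvate into lactate and restores the NAD+ that the oxidation consumes. Proliferating cell lines use this route heavily even in oxygen, and its enzymes are among the abundant proteins of the cytosol. In ribosome profiling, the stretches of mRNA that ribosomes shield from RNase are sequenced, so a gene's count reflects its mRNA level, its translation and its coding length together.

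PKM, ENO1, LDHA and LDHB were covered by many footprints, GAPDH, GPI, TPI1 and PGK1 by fewer, and PGAM1 by almost none. Together the 10 genes held 7485 of the 865838 counts of replicate 1 and 4858 of the 611266 counts of replicate 2. This was 0.864% of replicate 1 (0.845 to 0.884, 95% Clopper-Pearson) and 0.795% of replicate 2 (0.773 to 0.817), a mean of 0.830% ± 0.0493 (SD, n = 2). The 2 most abundant IDs of the table took 17.6% of replicate 1 and 23.2% of replicate 2. With those 2 IDs left out of the totals, the 10 genes held 1.05% of replicate 1 and 1.04% of replicate 2. Values below are counts per 1000000 counts in all (CPM) unless another scale is named. Intervals hold counting error only and treat amplified fragments as independent molecules.

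**Figure D1:**
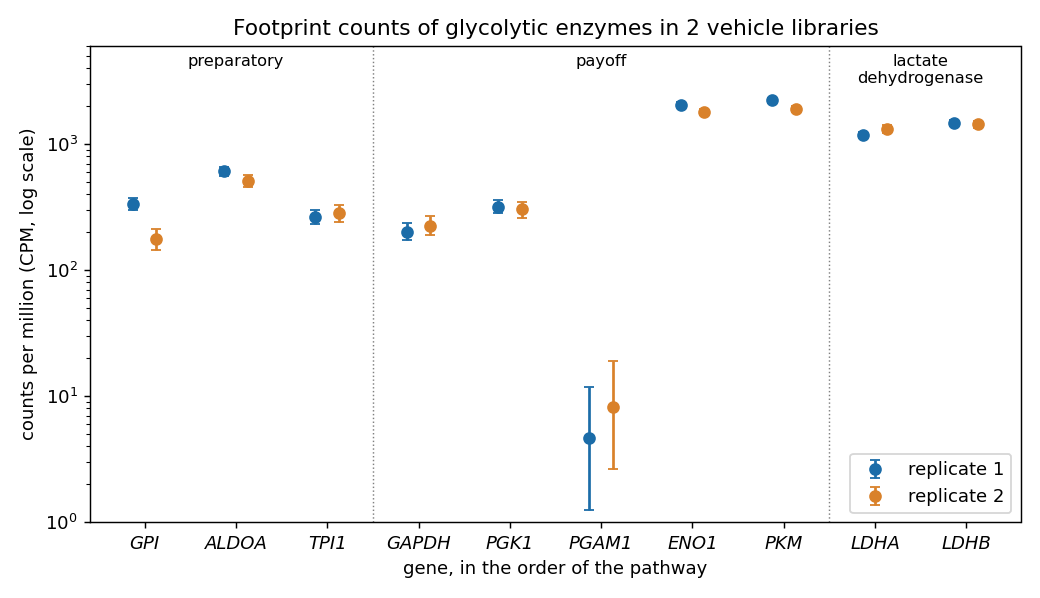
CPM (log scale) of the 10 glycolytic enzymes in the order of the pathway, with replicate 1 in blue and replicate 2 in orange and bars for 95% exact counting intervals. ENO1, PKM, LDHA and LDHB lie above 1179 CPM in both libraries, and PGAM1 lies at 4.62 and 8.18 CPM.

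Among the preparatory enzymes, ALDOA had the most counts. ALDOA (ENSG00000149925.12), the aldolase that cleaves fructose 1,6-bisphosphate, had 526 counts in replicate 1 and 310 in replicate 2, or 608 and 507 CPM. TPI1 (ENSG00000111669.10), which interconverts the 2 triose phosphates, had 229 and 172 counts, or 264 and 281 CPM. GPI (ENSG00000105220.10), which converts glucose 6-phosphate to fructose 6-phosphate, had 290 and 107 counts, or 335 and 175 CPM. TPI1 was close between the libraries, and the counting intervals of ALDOA (557 to 662 and 452 to 567 CPM) overlapped only slightly. GPI was clearly higher in replicate 1, and its 2 counting intervals (297 to 376 and 143 to 212 CPM) did not overlap. In sum, the 3 genes held 14.0% of the glycolytic counts in replicate 1 and 12.1% in replicate 2.

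The payoff enzymes spanned the widest range. PKM (ENSG00000067225.13), pyruvate kinase, which makes pyruvate and ATP in the last step, had 1925 counts in replicate 1 and 1155 in replicate 2, or 2223 and 1890 CPM. ENO1 (ENSG00000074800.9), the enolase that forms phosphoenolpyruvate, had 1769 and 1101 counts, or 2043 and 1801 CPM. These were the highest of the 10, and the pair alone held 49.4% of the glycolytic counts in replicate 1 and 46.4% in replicate 2. PKM gives rise to the spliced forms M1 and M2, which a count per gene does not separate. PGK1 (ENSG00000102144.9), the kinase of the first ATP-forming step, had 276 and 185 counts, or 319 and 303 CPM. GAPDH (ENSG00000111640.10), which oxidises glyceraldehyde 3-phosphate and is widely used as an abundant reference protein, had 175 and 138 counts, or 202 and 226 CPM. PGAM1 (ENSG00000171314.8), the mutase that feeds enolase, had 4 counts in replicate 1 and 5 in replicate 2, or 4.62 CPM (1.26 to 11.8) and 8.18 CPM (2.66 to 19.1). PGAM1 was thus detected in both libraries at a level near the 3 counts that an observed 0 would allow, 3.46 and 4.91 CPM.

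Both subunits of lactate dehydrogenase were high. LDHB (ENSG00000111716.8), the heart-type subunit, had 1270 counts in replicate 1 and 876 in replicate 2, or 1467 and 1433 CPM. LDHA (ENSG00000134333.9), the muscle-type subunit that is prominent in glycolytic tissues, had 1021 and 809 counts, or 1179 and 1323 CPM. The 2 genes held 30.6% of the glycolytic counts in replicate 1 and 34.7% in replicate 2.

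Within the whole table the enzymes ranged from the most abundant IDs to sparse ones. By mean CPM, PKM ranked 31, ENO1 34, LDHB 58 and LDHA 73 of 57820 IDs. ALDOA ranked 217, PGK1 428, TPI1 503, GPI 544 and GAPDH 679. PGAM1 ranked 9267 and was the only one of the 10 below a summed count of 20, a minimum that 6965 IDs reached. Of those 6965 IDs, 90.3% had a lower mean CPM than GAPDH and 99.6% had a lower one than PKM. These ranks compare counts per gene, not per length of coding sequence.

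**Figure D2:**
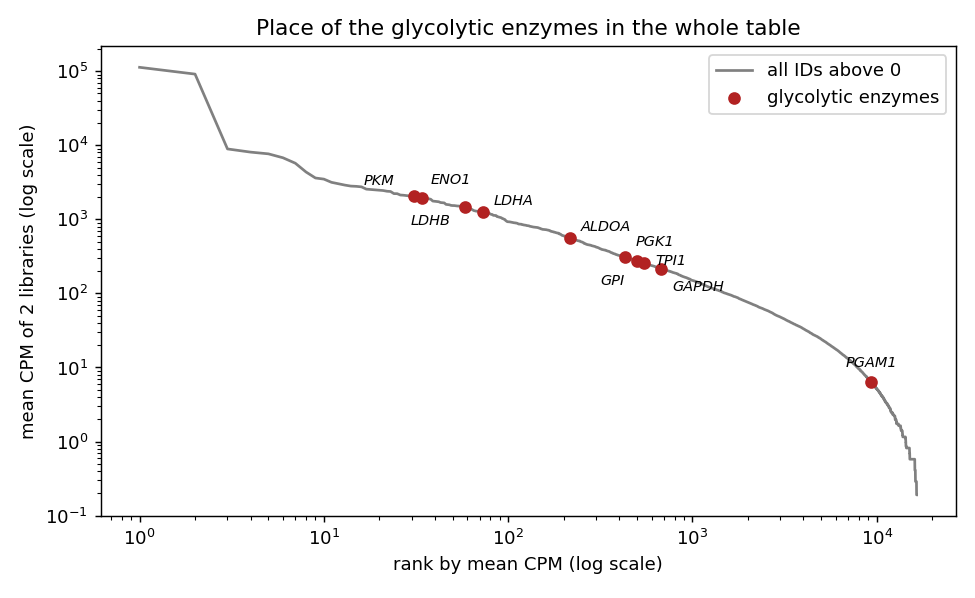
Mean CPM of the 2 libraries against rank for all IDs above 0 (grey line, both axes log scale), with the 10 glycolytic enzymes as red points. PKM, ENO1, LDHB and LDHA stand at ranks 31 to 73, the next 5 enzymes at ranks 217 to 679, and PGAM1 at rank 9267.

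After scaling by TMM factors, which correct for the share of counts taken by a few IDs, the order of counts was PKM, ENO1, LDHB, LDHA, ALDOA, PGK1, TPI1, GPI, GAPDH and PGAM1. Of the 9 neighbouring pairs in this order, 6 did not overlap between libraries and 3 did. The same 2 libraries set the order, so this count describes them and is no test of the order. No such share was computed for neighbouring pairs among all IDs. PKM overlapped ENO1, TPI1 overlapped GPI and GPI overlapped GAPDH, so these neighbours were not separated beyond the spread of the libraries. TPI1 had fewer counts than GPI in replicate 1, a ratio of 0.790 (95% exact interval 0.661 to 0.942), and more in replicate 2, a ratio of 1.61 (1.26 to 2.07). Of the pairs without overlap, 2 were narrow. The lowest value of LDHB was 1413 against a highest of 1375 TMM-scaled CPM for LDHA, and the lowest of PGK1 was 307 against a highest of 292 for TPI1. The ratio of PGK1 over TPI1 was 1.21 in replicate 1 (1.01 to 1.44) and 1.08 in replicate 2 (0.869 to 1.33), which includes equality.

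Coding lengths were not among the sources used here, so no density of footprints per codon was computed. Some of the enzymes are known to have subunits of nearly equal size, and counts were set against each other within such pairs, a choice made after the counts were seen. LDHA, LDHB and GAPDH form 1 such set. LDHA over GAPDH was 5.83 in replicate 1 (4.97 to 6.89) and 5.86 in replicate 2 (4.89 to 7.07), so GAPDH had several times fewer counts in both libraries. LDHA over LDHB was 0.804 in replicate 1 (0.740 to 0.874) and 0.924 in replicate 2 (0.838 to 1.02), a mean log2 ratio of -0.21 ± 0.14 (SD, n = 2). LDHB was thus ahead in both libraries, although the interval of replicate 2 included equality. The ratio in replicate 1 was 0.871 times that in replicate 2 (0.766 to 0.9896).

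The other pairs of like size also differed in both libraries. TPI1 over PGAM1 was 57.2 in replicate 1 (22.1 to 212) and 34.4 in replicate 2 (14.5 to 107). ENO1 over PGK1 was 6.41 (5.64 to 7.30) and 5.95 (5.09 to 6.99). PKM over GPI was 6.64 (5.86 to 7.54) and 10.8 (8.85 to 13.3). The direction was the same in both libraries for each of these 3 pairs, and only PKM over GPI had intervals that did not overlap between the libraries.

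GAPDH and PGAM1 are also the 2 enzymes with the most pseudogenes, copies of the coding sequence elsewhere in the genome. Symbols in RefSeq (GRCh38.p14) that add P and a number to the gene's own symbol named 65 pseudogenes for GAPDH and 13 for PGAM1. LDHA had 6, PKM 5, ENO1 and TPI1 4 each, LDHB 3, PGK1 and ALDOA 2 each, and GPI 0. Short footprints of 27 to 29 nt from such genes can match several places, and how the authors counted those is not given in the sources used here. All 20 deposited values of the 10 genes were whole numbers (within 0.001), while 21.6% of the 2241 IDs with at least 100 summed counts had a value that was not whole. Across the 10 genes, pseudogene number and mean CPM had a Spearman rho of -0.16 (n = 10, the same 2 libraries behind every point). The genes are not replicates, and their counts are not divided by coding length. GPI, with 0 pseudogenes, had 335 and 175 CPM. The part of pseudogenes in the low counts of GAPDH and PGAM1 was not tested. Whether counts of the 9 enzymes with pseudogenes were lost or divided is not known here. In RefSeq, TPI1 overlaps SPSB2, ALDOA overlaps LOC112694756 and ENO1 overlaps MIR6728, and without a stated strand setting their counts are uncertain in the same way.

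**Figure D3:**
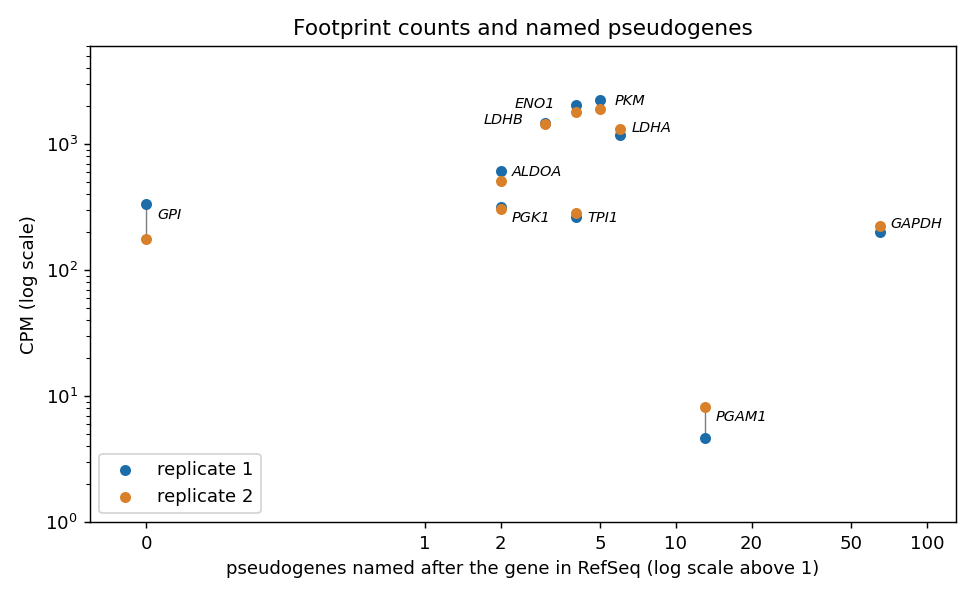
CPM (log scale) of each glycolytic enzyme in replicate 1 (blue) and replicate 2 (orange) against the number of pseudogenes that RefSeq names after it (log scale above 1). GAPDH, with 65 pseudogenes, and PGAM1, with 13, lie apart on the right, and GPI, with 0, lies near the level of GAPDH.

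The glycolytic enzymes differed little between the libraries, with the exception of GPI. The log2 ratio of replicate 1 over replicate 2 after TMM scaling was 0.83 for GPI (95% exact interval 0.50 to 1.16), a 1.77-fold difference. It was 0.13 for PKM (0.02 to 0.23) and -0.28 for LDHA (-0.41 to -0.14). For ALDOA, TPI1, GAPDH, PGK1, ENO1 and LDHB the interval included 0, with values between -0.27 and 0.15. PGAM1 had too few counts for this comparison.

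Of the 9 enzymes with at least 100 summed counts, 0 had an interval wholly beyond 2-fold, where 0.803% of the 2241 IDs at that minimum did. With a 1.5-fold limit the count was also 0, against 4.24% of all IDs. The interval excluded equality for 3 of 9, against 37.9% of all IDs: GPI and PKM were higher in replicate 1 (22.3% of all IDs) and LDHA was higher in replicate 2 (15.6% of all IDs). These counts are near the background or below it. By library size in place of TMM, every log2 ratio was higher by 0.11, and GPI, ALDOA, ENO1 and PKM were then the 4 whose interval lay above 0. With TMM factors from IDs of at least 100 summed counts, only GPI was higher in replicate 1, as PKM had a log2 ratio of 0.057 with an interval that included 0, and LDHA, GAPDH and LDHB were the 3 higher in replicate 2. The median absolute log2 ratio was 0.15 over the 9 enzymes and 0.25 over the 672 IDs with summed counts in the same range, 313 to 3080. Among those 672 IDs, 20 had a ratio at or above that of GPI (GPI included), or 2.98%. Each batch held a single library, so a batch effect and a replicate difference cannot be told apart here. No p-value was computed.

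**Figure D4:**
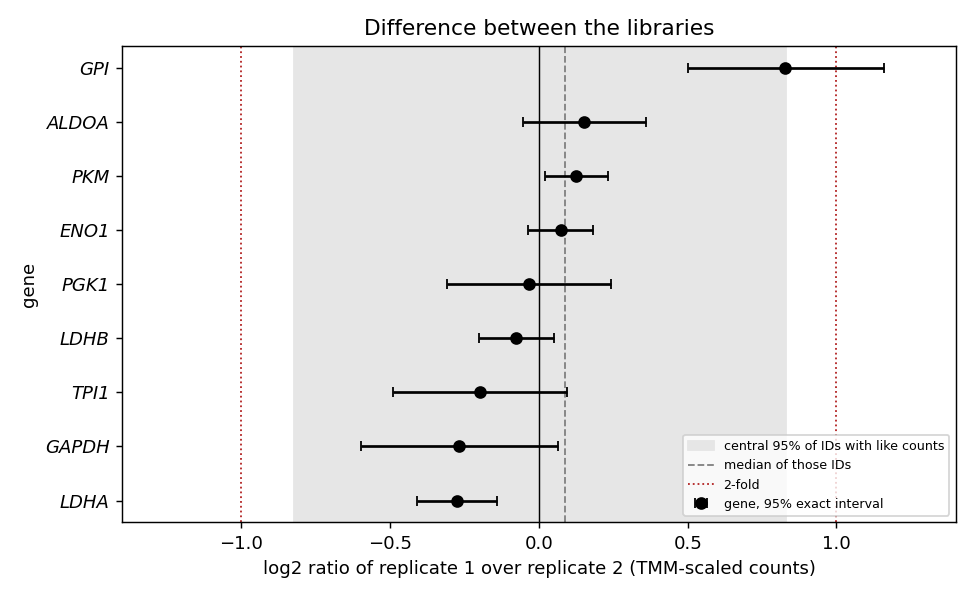
Log2 ratio of replicate 1 over replicate 2 (TMM-scaled counts) of the 9 glycolytic enzymes with at least 100 summed counts, with 95% exact intervals. The grey band spans the central 95% of the 672 IDs with summed counts of 313 to 3080 (-0.82 to 0.83), the dashed line their median and the dotted lines 2-fold; GPI lies at the edge of the band at 0.83 and the other 8 lie well within it.

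Shares within the pathway do not change with the scaling of the libraries. Dividing by the pathway sum is itself a scaling, and here it nearly equals TMM. The summed counts of the 10 genes had a log2 ratio of 0.012 after TMM scaling. These shares therefore largely restate the TMM ratios above. GPI made up 3.87% of the glycolytic counts of replicate 1 (95% exact interval 3.45 to 4.34) and 2.20% of those of replicate 2 (1.81 to 2.66). LDHA made up 13.6% in replicate 1 (12.9 to 14.4) and 16.7% in replicate 2 (15.6 to 17.7). PKM made up 25.7% (24.7 to 26.7) and 23.8% (22.6 to 25.0). As odds against the other 9 genes, replicate 1 over replicate 2, these shares differed by 1.79 for GPI (1.42 to 2.26), 0.791 for LDHA (0.714 to 0.875) and 1.11 for PKM (1.02 to 1.21). The interval included 1 for the other 7 genes. Other IDs were not put through this rule. With TMM scaling, 37.9% of all 2241 IDs had an interval that excluded equality.

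Glycolytic genes are textbook targets of the hypoxia-inducible factors, which bind DNA at short cores that include ACGTG. The starts of the 10 genes were searched for ACGTG alone, called the core below. Other forms of the core, and sites farther from the starts, were not searched. RefSeq (GRCh38.p14) gave 14 starts for the 10 genes. The core was found on either strand in the 250 bases before 8 of these 14 starts, or 57.1%, and 18.5% of all 35116 starts held it. The 8 belonged to 6 genes: GPI, ALDOA, TPI1, GAPDH, PGK1 and LDHA. ALDOA gave 3 of the 8, and the windows of its first 2 starts overlap, so the starts are not independent. No share per gene was computed over all genes, and the starts were not matched for base composition. Enrichment was not tested. The windows of ENO1, PKM and LDHB held none, nor did that of PGAM1. LDHA held 5 matches before 1 of its starts and 0 before the other. The 4 windows with more than 1 match, counted over both strands, are shown here around the match nearest the start. Capitals mark the core, CACGT being the core of the other strand. In GAPDH and ALDOA both matches are 1 palindrome, CACGTG, read on either strand. The CACGTG in the LDHA window likewise counts as 2 of its 5 matches. CACGTG is also the E-box of other factors and was held by 6.34% of all starts.
LDHA (chr11:18394466-18394518, plus strand): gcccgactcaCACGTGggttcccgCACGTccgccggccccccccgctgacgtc
PGK1 (chrX:78104041-78104093, plus strand): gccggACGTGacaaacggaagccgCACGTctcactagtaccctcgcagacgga
GAPDH (chr12:6535160-6535212, plus strand): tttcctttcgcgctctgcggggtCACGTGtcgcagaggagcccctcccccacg
ALDOA (chr16:30064362-30064414, plus strand): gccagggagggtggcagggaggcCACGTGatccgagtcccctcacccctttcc
A match of letters is not a bound site, and the footprint counts hold no measure of promoter activity.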

How the data were processed

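The authors deposited 1 table of estimated counts of ribosome-protected fragments of 27 to 29 nt per Ensembl gene ID, unscaled, per the labels, with 1 column per library. Gel-purified fragments spanned 20 to 38 nt, and ribosomal RNA was not removed, per the labels' protocols. Per the submitters' processing notes, the genome was hg19. Not given in the sources used here are the aligner, the annotation, the strand setting and the handling of multiply matching fragments. Deposited counts above 0 were not whole in 15.2% of cases for replicate 1 and 13.9% for replicate 2.

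The 10 members were matched by Ensembl ID before the dot. The members, lists and tests were chosen with earlier results of these data known, and all 10 members were to be named. CPM used the sum of all IDs. Counts were rounded, and edgeR 4.0.16 in R 4.3.3 gave TMM factors, fitted on IDs reaching 20 summed counts. Ratios between libraries and between genes had conditional exact binomial intervals at 95%. There was 1 group, so no contrast was tested. The 2-fold rule was tried on counts simulated with counting error only (2245 IDs tested, 200 changed, each of at least 200 summed counts). It recovered 92% of 3-fold and 100% of 4-fold changes, with 0 false calls. In the deposited counts the same rule called 0.803% of 2241 IDs within this 1 group. The simulation therefore does not describe the spread between the real libraries. Density per codon, and the wider glycolysis and cell type marker lists, were planned but not run: no coding lengths or ID names were in the sources used here, and the RefSeq table (59792 genes) paired 0 genes with Ensembl IDs. The order of genes therefore used TMM-scaled CPM per gene. Symbols of all 10 members matched RefSeq for pseudogenes, overlaps and starts. DESeq2 1.42.0 gave an alternative scaling. Other steps used Python 3.11.15, scipy 1.17.1 and pandas 2.3.3.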

Additional observations from a re-analysis of the deposited data

How the results depend on the processing

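The summed share of the 10 enzymes, 0.830%, became 1.04% when the total excluded the 2 highest IDs and 1.11% when it excluded the 10 highest, which follows from the smaller totals; single libraries gave 0.795% to 0.864%. The count of enzymes with an interval beyond 2-fold was 0 under the 6 other scalings, a 1.5-fold limit, 99% intervals and a minimum of 20 summed counts, and became 3 under a limit of equality, which was added after seeing the data. Under that limit, 2 enzymes were higher in replicate 1 and 1 in replicate 2. Library size and TMM over at least 1 summed count each gave 4 higher in replicate 1, DESeq2 scaling gave 3, and TMM over at least 100 summed counts gave 1 higher in replicate 1 (GPI, with PKM lost) and 3 higher in replicate 2. For these counts, shares over all IDs were computed under the main scaling only. GPI ranged from 0.76 to 0.94 on the log2 scale and LDHA from -0.34 to -0.17 over all scalings. PGK1 changed sign to 0.075 by library size, 0.0068 by DESeq2 and 0.045 by TMM over at least 1 summed count, and LDHB to 0.034 by library size and 0.0040 by the latter TMM setting. LDHA over LDHB was -0.31 to -0.11 (log2) in single libraries. The 6 neighbouring pairs without overlap stayed 6 in number by library size and without rounding. No paired analysis was possible because there is 1 group. Density per codon was not run. Depth limits PGAM1, with 4 and 5 counts, most.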
